A study of Danio rerio with 14 samples.

Results

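The 10 genes that follow build the postsynaptic side of the neuromuscular junction, and their RNA was measured in regenerating eye muscle of adult zebrafish. The set was chosen by symbol: chrna1, chrnb1, chrnd, chrne and chrng for the muscle acetylcholine receptor, musk, rapsn and dok7 for its clustering, and ache and colq for the enzyme of the synaptic cleft. Rows with these symbols were found for 9 of the 10, among 31014 features in all. No row carried the symbol chrng, and a row with the Entrez identifier of that gene is described separately.

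At the neuromuscular junction, acetylcholine released by the motor nerve opens a channel of 5 subunits in the muscle membrane, which depolarizes the fiber. Agrin from the nerve binds Lrp4 on the muscle, Lrp4 activates the kinase MuSK with the help of the adaptor Dok7, and rapsyn then packs the receptors under the nerve ending. Acetylcholinesterase, held in the cleft by the collagen tail ColQ, ends the signal. In mammals, embryonic and denervated muscle uses a gamma subunit where innervated adult muscle uses epsilon.

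The lateral rectus (LR), an extraocular muscle that abducts the eye, was sampled from fish of the genotype labelled actin:GFP, a transgene driven by an alpha-actin promoter, which every group carried. The groups were uninjured LR (CON, 0 h, 4 libraries), LR at 9 h after injury (H9, 9 hpi, 5 libraries) and LR at 18 hpi (H18, 5 libraries). For injury, a large part of the right LR was cut out of sexually mature adults, and the muscle left in place regrows from its own fibers. Each library pooled tissue of several fish, cut from frozen sections of decalcified heads by laser microdissection, so fibers, nerve branches, vessels and blood cells inside the outline were sampled together. No source used here gives the state of innervation after the surgery.

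The values are FPKM, read fragments scaled to transcript length and library size, with a single value per gene and group that CuffDiff formed from all libraries of that group. No SD or n belongs to such a value, no library can be left out, the depth behind it is unknown, and no test or p-value is given. A difference is the log2 ratio of FPKM plus 0.1, which understates differences at low FPKM. A gene was counted as lower or higher when this ratio passed 1.5-fold and its mean over the 3 groups was at least 1 FPKM, which 13447 features reached. All 9 genes reached it, but colq did so only through CON, since its mean over H9 and H18 was 0.882 FPKM. The upper-quartile scaling of the authors was kept as deposited. The median feature differed by 0.09 in H9 vs. CON, by -0.01 in H18 vs. CON and by -0.15 in H18 vs. H9. The 3 features with the highest mean held 76.4% to 82.9% of all FPKM in a group. Scaling to the summed FPKM moves H18 vs. H9 differences by up to -0.91, H18 vs. CON by up to -0.64 and H9 vs. CON by up to 0.27.

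All 9 genes found were below their CON level in both injured groups. In H9 vs. CON, 9 of 9 were lower, against 31.4% of all features lower and 34.9% higher. In H18 vs. CON, 9 of 9 were lower, against 34.7% of all features lower and 32.8% higher. Both counts include colq, which passed the filter on the mean only through CON. The median log2 difference of the 9 genes was -2.90 in H9 vs. CON, beside 0.09 for all features and -2.60 for a list of 28 genes of the contractile apparatus and other skeletal muscle proteins. In H18 vs. CON it was -3.33, beside -0.01 for all features and -3.33 for the muscle list. Both comparisons share the CON libraries and are not independent. In whole tissue, fewer muscle fibers and less RNA per fiber cannot be told apart.

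**Figure D1:**
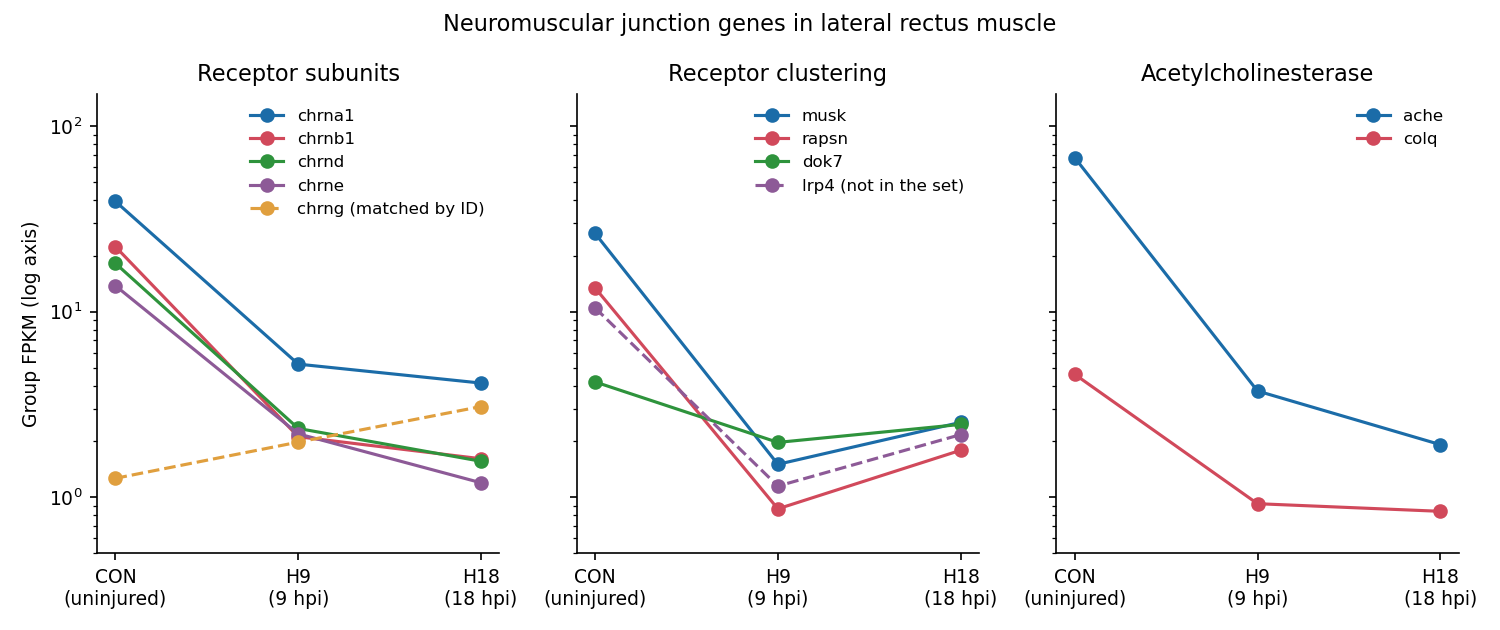
Group FPKM on a log axis in CON, H9 and H18, in panels for receptor subunits, receptor clustering and acetylcholinesterase, 1 point per group and gene, with dashed lines for chrng (matched by identifier) and lrp4 (not in the set). Each solid line ends below its CON value. ache has 1.92 FPKM in H18, against 67.6 FPKM in CON, while chrng runs upward to 3.08 FPKM in H18.

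The receptor subunits were among the more abundant of these genes in uninjured muscle. chrna1 (Entrez 30725, chromosome 6, 10576910 to 10593496 on GRCz10), the alpha subunit that carries the acetylcholine binding site, had 39.3 FPKM in CON, 5.22 FPKM in H9 and 4.13 FPKM in H18. Its level thus stood at 13.3% of CON in H9 and at 10.5% of CON in H18, log2 differences of -2.89 and -3.22. It was the most abundant of the 9 genes in both injured groups, while in CON it came second to ache.

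chrnb1 (Entrez 100006941, chromosome 7, 22272900 to 22306030), the beta subunit, had 22.4 FPKM in CON, 2.12 FPKM in H9 and 1.61 FPKM in H18. Of the 4 subunits of the set, it had the largest difference from CON at both times, with log2 values of -3.34 in H9 and -3.71 in H18. A second beta subunit gene, chrnb1l, begins 9612 bases past its end, at 22315643, and had 5.61 FPKM in CON, 1.31 FPKM in H9 and 0.288 FPKM in H18. The copies are close paralogs and reads that fit both were divided between them by CuffDiff, so each copy's own level is uncertain. chrnb1l was singled out after its values were seen.

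chrnd (Entrez 404273, chromosome 24, 25538073 to 25546069), the delta subunit, had 18.2 FPKM in CON, 2.35 FPKM in H9 and 1.56 FPKM in H18. Its log2 difference from CON was -2.90 in H9 and -3.46 in H18. chrne (Entrez 445315, chromosome 5, 37839946 to 37851331), the epsilon subunit of adult receptors, had 13.8 FPKM in CON, 2.20 FPKM in H9 and 1.198 FPKM in H18. With -2.60, chrne differed least from CON of the 4 subunits in H9, whereas in H18 its -3.42 lay within the range of the others.

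The levels of the 4 subunits added up to 93.7 FPKM in CON, 11.9 FPKM in H9 and 8.50 FPKM in H18, which is 12.7% of CON in H9 and 9.07% of CON in H18. Their log2 differences spanned -3.34 to -2.60 in H9 vs. CON and -3.71 to -3.22 in H18 vs. CON. The 5 other genes spanned -4.14 to -1.05 and -5.06 to -0.74. chrna1 exceeded the mean of chrnb1, chrnd and chrne 2.17 times in CON, 2.35 times in H9 and 2.83 times in H18, in a receptor that holds more alpha than any other subunit.

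The gamma subunit gene went the other way. RefSeq ties the symbol chrng to Entrez 100536659, which the tables list as LOC100536659, described as acetylcholine receptor subunit gamma-like (chromosome 2, 45228491 to 45245400). The match was made by identifier after values had been seen. This row had 1.27 FPKM in CON, 1.98 FPKM in H9 and 3.08 FPKM in H18, so it was higher than in CON by log2 differences of 0.61 in H9 and 1.22 in H18. After centring on the median feature, the difference in H9 was 0.52 and no longer reached 1.5-fold, and that in H18 was 1.23. Scaled to the summed FPKM, the differences from CON were 0.87 in H9 and 0.61 in H18. Scaled to that sum without its 3 highest features, they were 0.79 and 0.97. Whether chrng was higher at 18 than at 9 hpi therefore depends on the scaling. An uncharacterized feature shares the position of the row, and how reads were divided between them is not known.

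The ratio of gamma to epsilon within a group is not touched by the scaling between groups. chrng stood at 0.0917 of the chrne level in CON, at 0.902 in H9 and at 2.57 in H18. Epsilon RNA was therefore the more abundant of the pair in CON, the levels were close in H9, and gamma RNA was the more abundant in H18. Of the FPKM of 6 subunit genes together (chrna1, chrnb1, chrnb1l, chrnd, chrne and chrng), chrng took 1.26% in CON, 13.1% at 9 hpi and 26.0% at 18 hpi. chrne took 13.7% in CON, 14.5% at 9 hpi and 10.1% at 18 hpi. As deposited, the level of chrng itself was 244% of CON in H18, while the sum over the 6 genes was 11.9 FPKM, against 100.6 FPKM in CON.

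**Figure D2:**
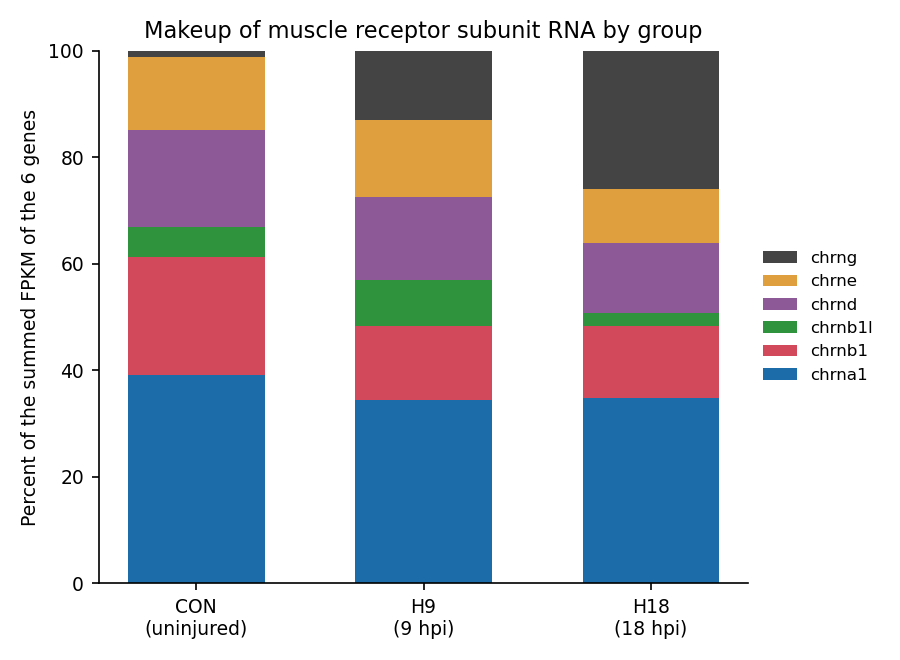
Stacked bars of the percent of the summed FPKM of 6 muscle receptor subunit genes in CON, H9 and H18, 1 combined value per group. The chrng segment covers 1.26% in CON, 13.1% at 9 hpi and 26.0% at 18 hpi, and chrna1 stays the largest segment, at 39.1%, 34.4% and 34.8%.

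Of the genes that cluster the receptor, musk and rapsn had larger differences from CON in H9 than any receptor subunit. musk (Entrez 334526, chromosome 10, 13126305 to 13220867), the muscle-specific receptor kinase, had 26.4 FPKM in CON, 1.51 FPKM in H9 and 2.53 FPKM in H18. This left 5.70% of the CON level in H9 and 9.59% in H18, log2 differences of -4.05 and -3.33. In CON it was the third most abundant of the 9 genes and in H9 the seventh.

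rapsn (Entrez 352942, chromosome 18, 20504667 to 20523552), the scaffold that holds receptors together, had 13.4 FPKM in CON, 0.867 FPKM in H9 and 1.79 FPKM in H18. Its log2 difference from CON was -3.81 in H9 and -2.84 in H18, and in H9 it was the least abundant of the 9 genes. Only 1.81% of all features had a larger fall than rapsn in H9 vs. CON, and 6.70% had one in H18 vs. CON.

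dok7 (Entrez 557881, chromosome 1, 40440549 to 40489315), the adaptor that activates MuSK from inside the cell, differed least. It had 4.19 FPKM in CON, 1.98 FPKM in H9 and 2.47 FPKM in H18, or 47.2% of CON in H9 and 59.0% of CON in H18. With a pseudocount of 1 FPKM in place of 0.1, its log2 difference in H18 vs. CON was -0.58 and no longer reached 1.5-fold. RefSeq names this gene dok7b. A row that RefSeq names dok7a, looked at after its values were known, is described with the signaling genes below.

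These differences reordered musk and dok7 RNA, with the dok7a row left out of the ratio. musk RNA stood at 6.31 times the dok7 level in CON, at 0.762 times in H9 and at 1.03 times in H18. The ratio of musk to chrna1 was 0.672 in CON, 0.288 at 9 hpi and 0.614 at 18 hpi. The ratio of rapsn to chrna1 was 0.342 in CON, 0.166 at 9 hpi and 0.434 at 18 hpi. Per unit of chrna1 RNA, then, both genes were scarce in H9 and near or above the CON ratio in H18.

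ache (Entrez 114549, chromosome 7, 25808242 to 25816662), which encodes acetylcholinesterase, had the largest difference of the 9 genes in both comparisons. It had 67.6 FPKM in CON, 3.74 FPKM in H9 and 1.92 FPKM in H18, so that 5.53% of the CON level was left in H9 and 2.84% in H18. Its log2 difference of -5.06 in H18 vs. CON was exceeded by 1.35% of all features. In CON the gene lay in the top 2.95% of features with a mean of at least 1 FPKM, whereas in H18 66.2% of them had a higher level.

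colq (Entrez 101886065, chromosome 16, 20393026 to 20430420), the collagen tail that anchors the enzyme, had 4.60 FPKM in CON, 0.924 FPKM in H9 and 0.840 FPKM in H18. Its log2 difference from CON was -2.20 in H9 and -2.32 in H18, smaller than that of its partner. ache exceeded colq 14.7 times in CON, 4.05 times in H9 and 2.29 times in H18. The ratio of ache to chrna1 was 1.72 in CON, 0.716 at 9 hpi and 0.466 at 18 hpi. RNA of ache was thus more abundant than that of chrna1 in CON and less abundant in both injured groups.

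**Figure D3:**
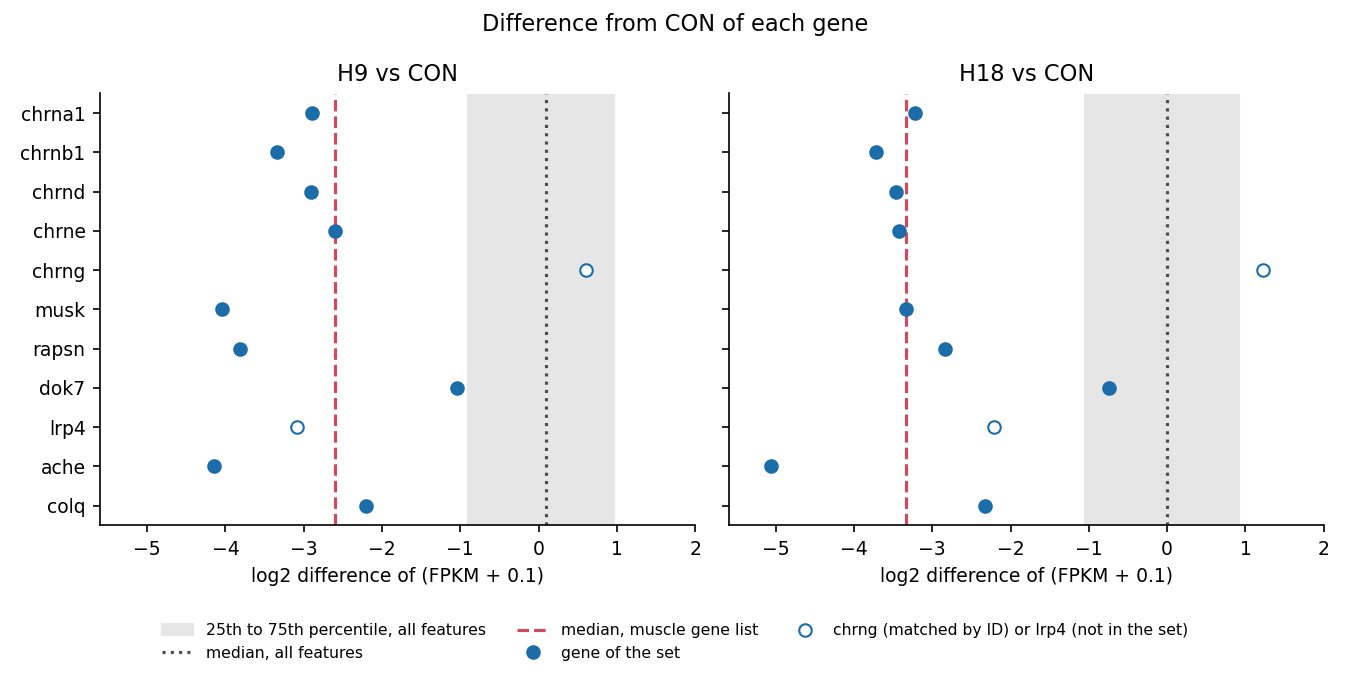
Log2 difference of FPKM plus 0.1 from CON for each gene, H9 vs. CON on the left and H18 vs. CON on the right, with filled points for the set and open points for chrng (matched by identifier) and lrp4 (not in the set). The gray band runs from the 25th to the 75th percentile of all 13447 features, the dotted line is their median and the dashed red line is the muscle list median of -2.60 and -3.33. ache lies furthest left in both panels, and chrng lies to the right of 0. dok7 lies just left of the band in H9 vs. CON and inside it in H18 vs. CON.

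Set against the median of the muscle list, the genes differed in size of effect. ache lay below it, by a log2 distance of -1.54 in H9 vs. CON and of -1.73 in H18 vs. CON. The receptor subunits lay between -0.74 and 0.01 from it in H9 and between -0.38 and 0.11 in H18. dok7 lay above it by 1.56 in H9 and by 2.60 in H18, and colq by 0.40 and 1.01. musk and rapsn lay at -1.44 and -1.21 in H9, while in H18 musk lay at 0.0016 and rapsn at 0.49. These are distances between group values, with no error attached.

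Between the injured groups the share of the set that was called was near that of all features. In H18 vs. H9, 2 of 9 genes were lower (chrne and ache), 2 were higher (musk and rapsn) and 5 passed 1.5-fold in neither direction, against 24.7% of all features lower and 15.5% higher. The median of the 9 genes was -0.33, beside -0.15 for all features and -0.79 for the muscle list. rapsn had 1.79 FPKM in H18 and 0.867 FPKM in H9, a log2 difference of 0.97, and 91.6% of all features had a smaller one. musk had 2.53 FPKM in H18 and 1.51 FPKM in H9, a log2 difference of 0.71. ache had 1.92 FPKM in H18 and 3.74 FPKM in H9 (-0.92), and chrne had 1.198 FPKM in H18 and 2.20 FPKM in H9 (-0.82). These are low levels, and none of the 4 passed 2-fold.

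Each scaling shifts all genes by nearly the same amount, so the unchanged order of the genes in H18 vs. H9 tests nothing. The side of 0 did change. After centring on the median feature, musk and rapsn were higher in H18 by 0.86 and 1.12, and chrne and ache were lower by 0.68 and 0.78. Scaled to the summed FPKM, musk reversed to -0.15 and rapsn came to 0.12. Of the 9 genes 6 were then lower and 0 higher, beside 9945 of 13447 features lower and 588 higher. Scaled to that sum without its 3 highest features, musk came to 0.28 and rapsn to 0.55. Here 5 of the 9 genes were lower and 0 higher, beside 6666 of 13447 features lower and 1039 higher. dok7 was 0.31 as deposited, -0.12 without the 3 highest features and -0.56 with the full sum. Whether musk and rapsn RNA was higher at 18 than at 9 hpi therefore depends on the scaling, whereas their ratios to chrna1 do not. In the comparisons with CON, each of the 9 genes was lower by at least 1.5-fold under all 4 scalings. Of all 13447 features, 4668 were lower in H18 vs. CON as deposited and 4643 after centring. That count was 5528 without the 3 highest features and 6855 with the full sum. In H9 vs. CON the counts were 4229, 4501, 3723 and 3492 in the same order.

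**Figure D4:**
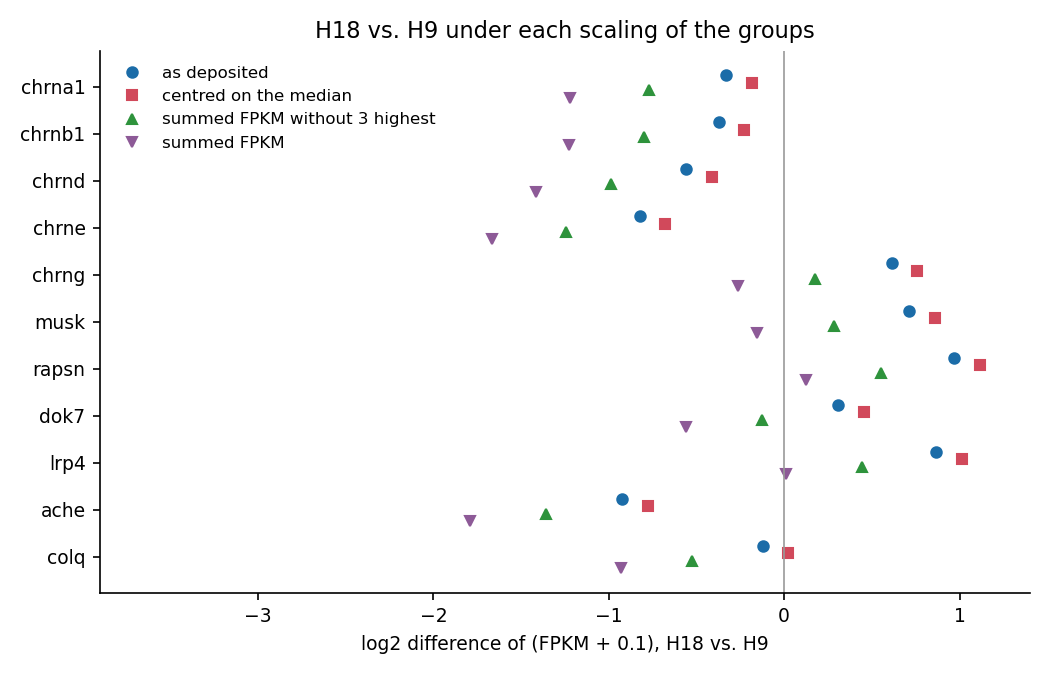
Log2 difference of FPKM plus 0.1 in H18 vs. H9 for each gene under 4 scalings of the groups: as deposited, centred on the median feature, and scaled to the summed FPKM with and without its 3 highest features. The points of all genes shift the same way, by up to 0.91 between the deposited and fully summed scale. musk, chrng and dok7 cross 0 on the way, and colq crosses it only after centring, at 0.02.

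Genes that work with the set were read from lists written by symbol. In these lists too, some genes passed the filter on the mean only through CON. The CON level of such a gene had to exceed its mean over H9 and H18. There was 1 such gene in the signaling list, 1 in the scaffold list, 2 each in the basal lamina and excitability lists and 1 among the regulators. Among 26 genes of agrin and neuregulin signaling with a mean of at least 1 FPKM, 9 were lower, 12 higher and 5 neither in H9 vs. CON, and 12 were lower, 8 higher and 6 neither in H18 vs. CON. Their medians were 0.25 and 0.10, close to those of all features, and the H18 median was -0.14 or -0.50 when scaled to a sum of FPKM without or with its 3 highest features. Under these scalings 12 genes were lower in H18 vs. CON, as before, but only 4 or 3 were higher. Of all 13447 features, 5528 were lower and 3586 higher, or 6855 lower and 2576 higher, in the same order. erbb4a, a neuregulin receptor, had 19.5 FPKM in CON, 5.48 FPKM in H9 and 6.81 FPKM in H18. crk, an adaptor that binds Dok7, had 5.12 FPKM in CON, 10.03 FPKM in H9 and 9.05 FPKM in H18, and its relative crkl differed by less than 1.5-fold in both comparisons. ptpn11a, a tyrosine phosphatase, had 5.13 FPKM in CON, 8.99 FPKM in H9 and 6.94 FPKM in H18.

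A few genes of this list were picked out after their values were seen, because they act in the activation of MuSK. lrp4, the agrin receptor, had 10.5 FPKM in CON, 1.15 FPKM in H9 and 2.18 FPKM in H18, log2 differences from CON of -3.08 and -2.22. Its course was like that of musk and rapsn, with a value of 0.87 in H18 vs. H9 as deposited and of 0.01 when scaled to the summed FPKM. agrn, agrin itself, which RefSeq ties to the row hm:gc12, had 5.23 FPKM in CON, 3.43 FPKM in H9 and 2.47 FPKM in H18. The dok7a row, LOC100331748, had 2.36 FPKM in CON, 0.534 FPKM in H9 and 0.368 FPKM in H18. dok7a passed the filter on the mean only through CON. On the deposited scale lrp4, like musk, rapsn and dok7, had its lowest value in H9, whereas agrn and dok7a had theirs in H18.

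The membrane scaffold around the receptor was lower as well, though less so. Of 12 features of the dystrophin and utrophin complex, 9 were lower and 0 higher in H9 vs. CON, with a median of -1.19, and 7 were lower and 0 higher in H18 vs. CON, with a median of -0.76. Scaled to the summed FPKM, these counts were 7 lower and 1 higher in H9 vs. CON and 11 lower and 0 higher in H18 vs. CON. Of all 13447 features, 3492 were then lower in H9 vs. CON and 6855 in H18 vs. CON. dmd, the dystrophin gene, had 24.5 FPKM in CON, 6.62 FPKM in H9 and 7.45 FPKM in H18. plecb and pleca, which encode the linker plectin, had 29.6 and 19.9 FPKM in CON, 22.7 and 8.41 FPKM in H9, and 17.3 and 11.8 FPKM in H18. dag1, which encodes dystroglycan, had 15.8 FPKM in CON, 7.07 FPKM in H9 and 7.52 FPKM in H18. These levels stayed nearer to CON than those of the receptor subunits. Outside the rule for naming genes, and after its values were seen, dtna was singled out, since it encodes the dystrobrevin that stabilizes receptor clusters in mice. It had 17.3 FPKM in CON, 0.761 FPKM in H9 and 0.196 FPKM in H18, a log2 difference in H18 vs. CON of -5.88, larger than that of ache. dtna is the gene of this list that passed the filter on the mean only through CON. utrn, utrophin, the synaptic relative of dystrophin, was picked in the same way and has 2 rows. One had 9.31 FPKM in CON, 5.35 FPKM in H9 and 8.42 FPKM in H18. The other had 4.98 FPKM in CON, 1.94 FPKM in H9 and 4.73 FPKM in H18. Both rows were within 1.5-fold of CON in H18 as deposited, but both were lower when scaled to the summed FPKM.

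Among 12 genes of the synaptic and muscle basal lamina, 8 were lower and 0 higher in H9 vs. CON (median -1.15), and 9 were lower and 0 higher in H18 vs. CON (median -1.03). lama4, a laminin chain of the synaptic cleft, had 27.5 FPKM in CON, 9.51 FPKM in H9 and 8.77 FPKM in H18. lamc1, the common laminin gamma chain, had 24.9 FPKM in CON, 17.9 FPKM in H9 and 12.1 FPKM in H18. hspg2, perlecan, which binds the ColQ tail, had 24.05 FPKM in CON, 10.4 FPKM in H9 and 14.3 FPKM in H18. col4a1, a collagen IV chain, had 20.8 FPKM in CON, 23.6 FPKM in H9 and 15.2 FPKM in H18. As deposited it passed 1.5-fold in neither comparison. Scaled to the summed FPKM, all 12 genes of this list, col4a1 included, were lower in H18 vs. CON, as were 6855 of all 13447 features.

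Most genes of a list on muscle excitability were lower. Of 9 ion channel and ankyrin genes, 7 were lower and 1 higher in H9 vs. CON (median -2.05), and 7 were lower and 0 higher in H18 vs. CON (median -2.50). Of the lower genes, scn4ba and scn4bb passed the filter only through CON. The one that was higher was scn4ab, a muscle sodium channel, with 29.6 FPKM in CON, 51.4 FPKM in H9 and 24.1 FPKM in H18. cacna1sa, the voltage sensor of the fiber, had 35.6 FPKM in CON, 4.16 FPKM in H9 and 4.02 FPKM in H18. ank3a, an ankyrin that anchors sodium channels, had 14.8 FPKM in CON, 4.34 FPKM in H9 and 2.52 FPKM in H18. kcnj2a, an inward rectifier potassium channel, had 7.95 FPKM in CON, 6.40 FPKM in H9 and 7.27 FPKM in H18. Scaled to the summed FPKM, all 9 genes of this list were lower in H18 vs. CON, as were 6855 of all 13447 features.

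A list on the regulation of synaptic genes in muscle held 18 genes, among them the cell adhesion genes ncam1a and ncam1b. In H9 vs. CON, 8 were lower, 3 higher and 7 neither (median -0.36). In H18 vs. CON, 10 were lower, 2 higher and 6 neither (median -0.89). The myogenic factors in this list bind the receptor subunit promoters. myog, myogenin, had 26.3 FPKM in CON, 8.99 FPKM in H9 and 8.08 FPKM in H18. myf6 had 19.9 FPKM in CON, 2.23 FPKM in H9 and 0.560 FPKM in H18. myod1, which had 36.4 FPKM in CON, 30.3 FPKM in H9 and 16.3 FPKM in H18, was lower by 1.5-fold only in the later comparison. sik1, a kinase that acts on class II histone deacetylases, had 25.8 FPKM in CON, 11.6 FPKM in H9 and 5.84 FPKM in H18. The 3 genes higher in H9 vs. CON were runx1, with 7.25 FPKM in H9 and 4.26 FPKM in CON, hdac9b, with 5.71 FPKM in H9 and 1.95 FPKM in CON, and gadd45aa, with 3.06 FPKM in H9 and 1.36 FPKM in CON. In H18 runx1, hdac9b and gadd45aa had 6.40, 3.91 and 2.82 FPKM, and runx1 no longer differed from CON by 1.5-fold. Scaled to the summed FPKM, 14 genes of this list were lower and 0 higher in H18 vs. CON, beside 6855 of all 13447 features lower and 2576 higher.

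**Figure D5:**
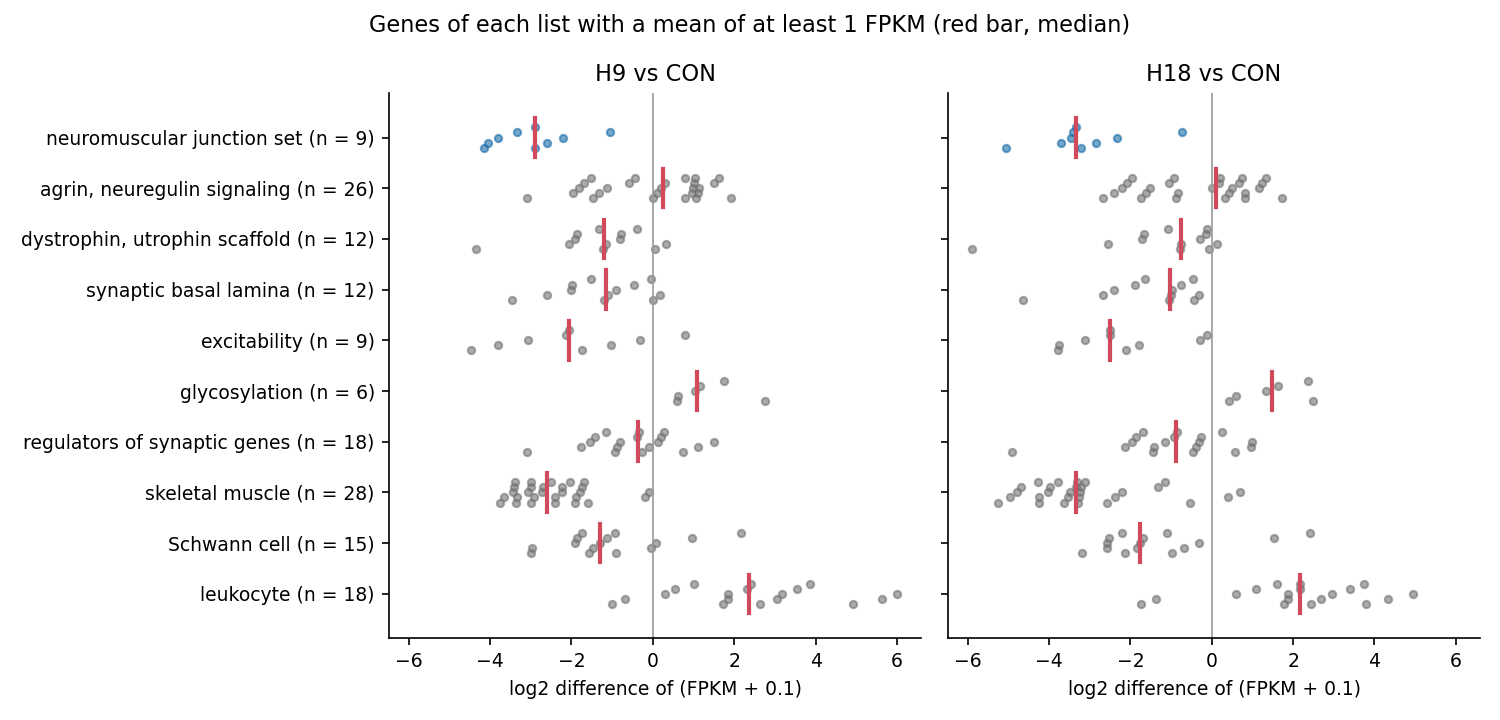
Log2 difference of FPKM plus 0.1 from CON for the genes of 10 lists with a mean of at least 1 FPKM, H9 vs. CON on the left and H18 vs. CON on the right, with 1 point per gene and a red bar at the list median. The neuromuscular junction set lies with the skeletal muscle list, at medians of -2.90 and -2.60 in H9 vs. CON, the scaffold and basal lamina lists lie nearer to 0, and the leukocyte list lies above it.

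Other cell types moved with these comparisons, and their part in the results was not tested. The tissue carried the marks of skeletal muscle, with ckmb at 4316 FPKM and actc1b at 3839 FPKM in CON. Of 28 muscle genes, 26 were lower in H9 vs. CON and 25 in H18 vs. CON, and the 29 muscle genes found added up to 20454 FPKM in CON, 2735 FPKM in H9 and 1601 FPKM in H18. The muscle gene that was higher in H18 vs. CON was tnnt3a, with 2.15 FPKM in H18 and 1.29 FPKM in CON. Of 18 leukocyte genes, 14 were higher and 2 lower in H9 vs. CON, and 16 higher and 2 lower in H18 vs. CON, with a summed level over the 22 found of 319 FPKM in CON, 417 FPKM in H9 and 376 FPKM in H18. spi1b, a myeloid transcription factor, had 3.26 FPKM in CON, 30.3 FPKM in H9 and 35.4 FPKM in H18. The genes that were lower were cd74a and cd74b of antigen presentation, at 159 and 104 FPKM in CON, 79.7 and 64.9 FPKM in H9, and 47.6 and 40.1 FPKM in H18. No leukocyte marker was listed at 0 in any group.

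Genes of the nerve side had low levels. Of 35 genes of the motor nerve terminal, 4 had a mean of at least 1 FPKM, 2 of them only through CON. The sum over all 35 was 25.5 FPKM in CON, 12.7 FPKM in H9 and 14.5 FPKM in H18. chata, which makes acetylcholine, had 0.262 FPKM in CON, 0.110 FPKM in H9 and 0.245 FPKM in H18, and chatb was listed at 0 in all groups. Of 15 Schwann cell genes, 11 were lower and 2 higher in H9 vs. CON, and 12 lower and 2 higher in H18 vs. CON. mbpb, a myelin protein gene, had 101 FPKM in CON, 41.3 FPKM in H9 and 22.9 FPKM in H18, and the 17 Schwann genes found summed to 438 FPKM in CON, 178 FPKM in H9 and 128 FPKM in H18. The Schwann genes that were higher were cnp, with 4.10 FPKM in CON, 18.7 FPKM in H9 and 22.4 FPKM in H18, and ngfrb, with 2.67 FPKM in CON, 5.28 FPKM in H9 and 7.94 FPKM in H18.

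RNA of other tissues was detected as well. The photoreceptor gene rho had 26.9 FPKM in CON, 5.75 FPKM in H9 and 0.0843 FPKM in H18, and it alone of 12 retina genes had a mean of at least 1 FPKM. The 12 retina genes summed to 32.8 FPKM in CON, 7.94 FPKM in H9 and 0.806 FPKM in H18, with 0, 1 and 6 of them listed at 0. Of 6 erythrocyte genes, 0 were lower and 1 higher in H9 vs. CON, and 3 lower and 0 higher in H18 vs. CON. Of 7 epidermis genes, 3 were lower and 1 higher in H9 vs. CON, and 5 lower and 1 higher in H18 vs. CON, the higher one being krt18a.1 in both. Among these 7 genes, 2 passed the filter on the mean only through CON. Of 7 endothelium genes, 0 were lower and 4 higher in H9 vs. CON, and 2 lower and 1 higher in H18 vs. CON. These lists depended on the scaling. With the summed FPKM, the erythrocyte list had 0 lower and 4 higher in H9 vs. CON and 6 lower and 0 higher in H18 vs. CON, and the endothelium list had 6 lower and 0 higher in H18 vs. CON. The epidermis list then had 1 lower and 1 higher in H9 vs. CON. Of all 13447 features, 3492 were then lower and 5777 higher in H9 vs. CON, and 6855 lower and 2576 higher in H18 vs. CON.

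The genes nearest to chrna1 and ache were found by the distance between their 2 log2 differences from CON, over 2 comparisons that share CON. Such nearness is a description of 3 group values. For chrna1 the nearest 5 were kcnma1a, a calcium-activated potassium channel, coq9, which serves coenzyme Q synthesis, LOC567192, described as a CD59 molecule, the slow troponin gene tnni1d, and ehbp1l1a, at distances of 0.0089 to 0.11. coq9, for example, had 47.2 FPKM in CON, 6.24 FPKM in H9 and 4.79 FPKM in H18. For ache the nearest 5 were zp3a.1, hapln2, tacr1b, LOC799882 and asb16, at distances of 0.20 to 0.31, so fewer genes lay close to it. All of these but tacr1b passed the filter on the mean only through CON. A CON level above the mean over H9 and H18 was thus a condition of their entry. zp3a.1 was listed at 0 in H18, where the pseudocount partly sets its difference. tacr1b, a tachykinin receptor gene, had 40.1 FPKM in CON, 2.61 FPKM in H9 and 1.12 FPKM in H18.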

How the data were processed

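Ribosomal-RNA-depleted libraries of pooled LR tissue, made with a stranded kit, were sequenced from single ends. Alignment to GRCz10 was done by the authors with TopHat2 2.0.13 and Bowtie2 2.2.1, and Cuffdiff 2.2.1 was run with upper-quartile and compatible-hits normalization and multi-read correction. The strand setting is not given in the sources used here. The authors deposited FPKM with 1 combined value per group. The deposited fold changes, p-values, q-values and calls of the authors were not used. A count table with 14 columns was not used, because no label ties a column to a library. The planned edgeR tests were therefore not run, nor was the planned search for promoter motifs, for which no sequence was at hand.

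Differences were log2(FPKM + 0.1), with calls at 1.5-fold among features with a mean of at least 1 FPKM. The FPKM of 12 features differed between comparison tables, none of them in the set. The set and the gene lists were chosen with earlier results of these data known. Named are all genes of the set, up to 4 genes of highest mean per partner list, genes called against the direction of most of their list where the list had one, and a few markers of other cell types, whose lists are given by counts and, where they moved most, sums. Symbols not in the tables were looked up by Entrez identifier in RefSeq (assembly GRCz12tu), whose build differs, so only names were taken from it. Positions are those of the tables, counted from 1. Alternatives were other pseudocounts, filters, folds and scalings, of which the sums of FPKM were added after the data were seen. Python 3.11.15, numpy 2.4.6, pandas 2.3.3 and matplotlib 3.10.9 were used.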

Additional observations from a re-analysis of the deposited data

How the results depend on the processing

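The count of lower genes in the set was 9 of 9 in H9 vs. CON under every alternative that kept all of them, and 8 of 9 in H18 vs. CON with a pseudocount of 1 FPKM or a 2-fold limit, when dok7 missed it. Of all 13447 features, 3694 were lower in H9 vs. CON with that pseudocount, 4289 with 0.01 FPKM and 3139 at 2-fold. In H18 vs. CON, 4046 were lower with a pseudocount of 1 FPKM and 3488 at 2-fold. Without a filter on the mean, 7816 of 31014 features were lower in H9 vs. CON. A mean of at least 5 FPKM left 7 genes, all 7 lower in both. Of the 4524 features with that mean, 1414 were lower in H9 vs. CON and 1537 in H18 vs. CON. In H18 vs. H9, 4 of the 9 genes were called, but only 1 with a pseudocount of 1 FPKM and 0 at 2-fold. Under these 2 settings, 3631 and 2591 of 13447 features were called. Scaled to the summed FPKM, the H18 vs. H9 value of musk reversed to -0.15 and that of chrng to -0.26. Over all features, 8928 were called in H9 vs. CON, 9073 in H18 vs. CON and 5404 in H18 vs. H9. Without a filter on the mean these counts were 17397, 17246 and 13144, and with a mean of at least 5 FPKM they were 3204, 3296 and 1723. In H18 vs. H9 the count was 2591 at 2-fold and 10533 when scaled to the summed FPKM. The split of lower against higher calls moved with that scaling too, from 3322 lower and 2082 higher as deposited to 9945 lower and 588 higher, and to 6666 lower and 1039 higher without the 3 highest features. In H18 vs. CON it was 4668 lower and 4405 higher as deposited and 6855 lower and 2576 higher when scaled to the sum. No paired analysis was possible because each group has 1 combined FPKM, and for the same reason no library could be left out and no count model, other normalization or low-count filter on libraries could be run. Depth is unknown, so values under 1 FPKM, such as those of rapsn in H9 and colq in both injured groups, carry an error that cannot be stated.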

Other observations

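Genes of protein glycosylation, several of them mutated in human congenital myasthenia, differed from CON in the opposite direction to the set. All 6 were higher in H9 vs. CON, with a median of 1.09, and 5 of 6 in H18 vs. CON, with a median of 1.48, beside 0.09 and -0.01 for all features. Of all features, 34.9% were higher in H9 vs. CON and 32.8% in H18 vs. CON. gfpt1, the entry enzyme of the hexosamine pathway, had 7.11 FPKM in CON, 14.6 FPKM in H9 and 22.3 FPKM in H18. gmppb, which makes the mannose donor used on dystroglycan, had 6.62 FPKM in CON, 14.8 FPKM in H9 and 16.8 FPKM in H18. alg2, an early mannosyltransferase, had 0.781 FPKM in CON, 5.86 FPKM in H9 and 4.42 FPKM in H18. gfpt2 had 7.20 FPKM in CON, 10.9 FPKM in H9 and 10.9 FPKM in H18. The H9 vs. CON count was 4 of 6 after centring on the median feature, and the H18 vs. CON count was 4 of 6 when scaled to the summed FPKM. Of all 13447 features, 4375 were higher in the first case and 2576 in the second. These genes serve secreted and membrane proteins in general, and which cells the RNA came from was not tested.

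Of 15 other nicotinic subunit genes found, most of them neuronal, 14 had a mean under 1 FPKM. The exception was chrnb1l, which passed the filter on the mean only through CON. chrna9, the subunit of hair cell receptors in mammals, had 1.38 FPKM in CON, 0.0526 FPKM in H9 and 0.100 FPKM in H18, and 2 of the 15 genes were listed at 0 in CON, 1 in H9 and 4 in H18. In the sparse nerve terminal list, gap43, a growth cone protein gene, had 0.0912 FPKM in CON, 0.145 FPKM in H9 and 1.14 FPKM in H18, a level too low to be read without replicates.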
